A study of Rattus norvegicus with 8 samples.

Results

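The cytosolic ribosomal protein genes encode the proteins of the large and small subunits of the ribosome that translates messages in the cytoplasm. Members were the genes whose symbols begin with Rpl or Rps and a number, together with Rplp0, Rplp1, Rplp2, Rpsa and Fau, and without the S6 kinases. By this rule 86 of the 15637 genes named on the array were members, carried by 150 probes, and 84 of them were bright enough to be tested. They comprised 44 core genes of the large subunit, 31 core genes of the small subunit and 11 paralogues or like genes. The members not tested, Rps12l4 and Rps7-ps20, were dim in both groups.

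The study measured kidney RNA of male rats (10 weeks of age per the labels) at day 28 after colistin at 30 mg/kg (4 samples) or after saline (4 samples). Colistin, a polymyxin given against Gram-negative bacteria, is toxic to renal tubules, and the series models that toxicity. The labels give no strain, route or schedule, nor whether samples are separate animals, and p-values here reflect only variation among these samples, which may in part be technical. The labels name whole kidney, while the series title speaks of tubules. In bulk tissue a different mix of cells and a different amount of RNA per cell cannot be told apart.

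Each ribosomal protein is made from its own gene, and cells keep these products in near balance because a ribosome needs each of them. Many of their messages begin with a C followed by an unbroken run of pyrimidines, the terminal oligopyrimidine or TOP tract, through which the growth kinase mTORC1 and the RNA-binding protein LARP1 control their translation. In the kidney this machinery is known for its part in tubule growth after loss of renal mass. An array measures the level of a message and not how often it is translated.

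Start sites are shown for some of the members whose values are given in detail. The TOP tract is the sequence feature for which this family is best known. Each window holds 10 bases before the start annotated by RefSeq on GRCr8 and 20 bases from it, 5′ to 3′ on the gene's strand. A tract at the start was a C within 5 bases of the start, on either side. It had to be followed by at least 4 bases that are each C or T. Capitals mark the run that holds it, from the first C of that run, and T bases just before that C are in lower case. The first 7 genes had a tract, and no such letters stood at the start of the last 3. Rpl5, Rpl13a and Rps6, also given in detail below but not shown here, had no tract at the start either.
Rpl17 (chr18:70856266-70856295, plus strand): ttcgcgCTTCCTCTTCCTgttagcggccag
Rpl28 (chr1:78083513-78083542, minus strand): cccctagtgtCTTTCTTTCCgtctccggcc
Rpl27a (chr1:172974563-172974592, plus strand): cttggtgggCTCCTCCCTCTTTCTTTTCTg
Rps27a (chr14:107488922-107488951, minus strand): agggcggttCCTTCgacccggagactcggt
Rps14 (chr18:56498250-56498279, plus strand): ccgtCTCTCTCTTTCCggtggaggagtctg
Rplp0 (chr12:46718371-46718400, minus strand): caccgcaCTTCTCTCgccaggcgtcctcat
Rps18 (chr20:4933735-4933764, plus strand): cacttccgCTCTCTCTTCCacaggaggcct
Rpl11 (chr5:153560783-153560812, minus strand): cttgaagcttgtttggtgctggggagcatc
Rps27l (chr8:76443648-76443677, plus strand): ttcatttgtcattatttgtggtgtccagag
Rpl3l (chr10:14258436-14258465, plus strand): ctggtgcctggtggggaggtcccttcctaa

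A promoter entry was matched for 69 members, and 41 of them (59.4%) had a tract at the start, against 17.0% of all 27457 promoters in the table. On the opposite strand the same letters stood at the start of 3 members (4.35%), against 21.2% of all promoters. The annotated first base was itself such a C, with at least 4 pyrimidines after it, in 23 members (33.3%), against 2.63% of all promoters. An annotated start can lie some bases away from the start used in kidney, so these are descriptions of the annotation.

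No single cytosolic ribosomal protein gene passed the test, but 78 of the 84 had a positive fold change after colistin and 6 a negative one. Over all 12411 genes tested 45.1% were positive. The median log2 fold change of the members was 0.50, against -0.14 for all genes, a difference of 0.64. The quartiles of the members were 0.27 and 0.76, and the whole range ran from -0.62 to 1.32. The smallest adjusted p was 0.0843, for Rpl17 (limma, Benjamini-Hochberg adjustment across the genes tested), and 0 of 84 members passed 0.05. Of all genes 2% passed, 1.46% as higher and 0.54% as lower.

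Without adjustment 22 members had p under 0.05, each of them higher, against 10.5% of all genes as higher and 12.2% as lower. That count was 6 without colistin array 1 and 29 without saline array 4, the extremes when 1 array was left out, 10 with slide as a block and 52 with normexp, 49 of them higher. For 30 members the 4 colistin values lay wholly above the 4 saline values, and for 0 members wholly below. Among all genes the groups did not overlap in 6.89% as higher and 11.7% as lower. With normexp, run on the median spot signal with an offset of 50, 37 members passed, 35 higher and 2 lower (Rpl3l and Rpl27l2), but so did 27.2% of all genes, 5.55% as higher and 21.7% as lower. The count of members that passed thus differed between these settings, which differ in the input signal, the background method and the offset, and the member median with normexp was 0.63.

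**Figure D1:**
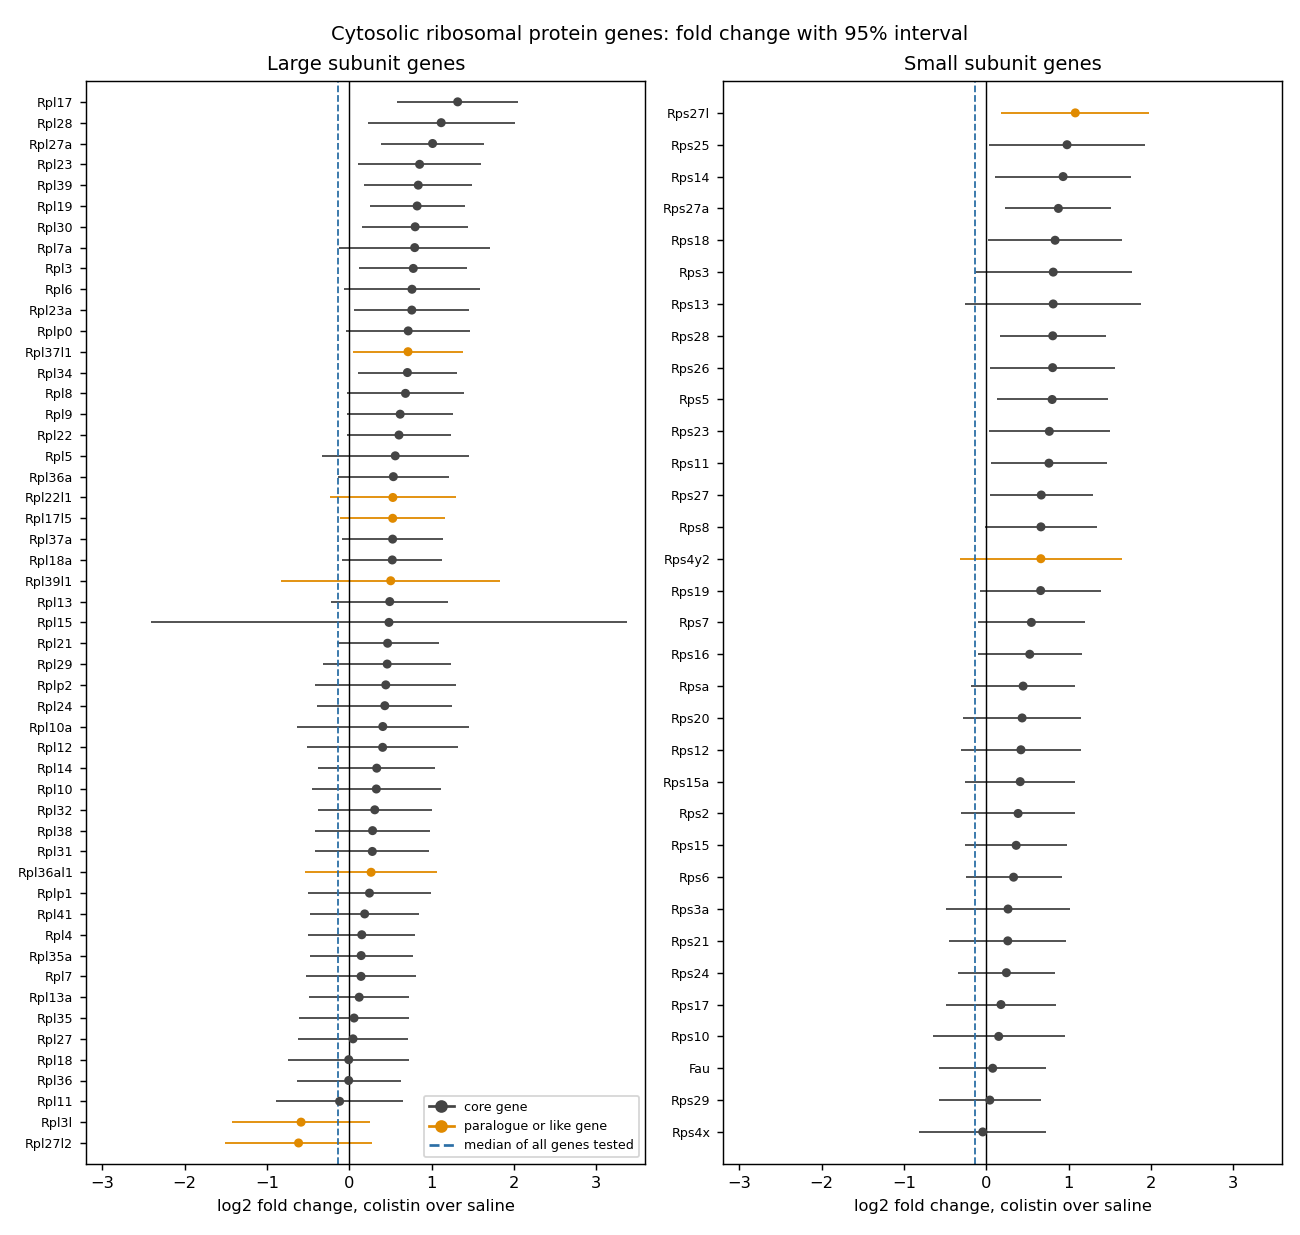
Log2 fold change, colistin over saline, of each of the 84 members tested (points) with its 95% interval from limma (lines), for the large subunit on the left and the small subunit on the right. Most points lie to the right of 0 and of the dashed line at -0.14, the median of all genes, and Rpl3l and Rpl27l2 lie farthest to the left.

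The fold changes of the members were close to each other. Their SD was 0.34, against 1.30 over all genes. The members also varied less between arrays of a group, with a median SD of 0.19 on the colistin arrays and 0.36 on the saline arrays, against 0.59 and 0.84 over all genes. Their probes were bright: 76 of the 84 lay in the brightest 10% of genes by mean signal. The other 1165 genes of that 10% had a median log2 fold change of -0.10, and 45.7% of them were positive. Those genes also varied less than all genes, with a median SD of 0.31 on colistin arrays and 0.50 on saline arrays and an SD of fold changes of 0.91.

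**Figure D2:**
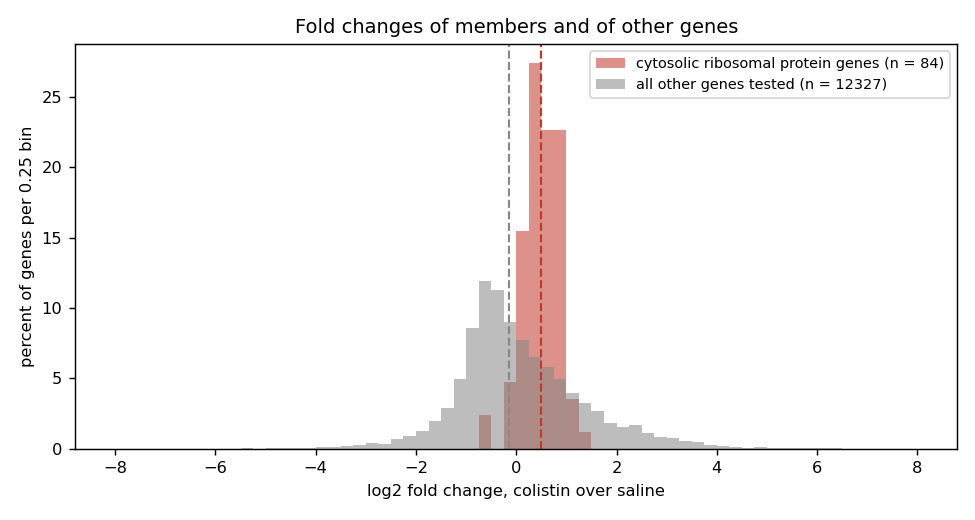
Distribution of log2 fold change, colistin over saline, in bins of 0.25, as percent of the 84 members (red) and of the other 12327 genes tested (grey), with dashed lines at the medians. The members form a narrow peak between 0 and 1, while the other genes spread widely around a median of -0.15.

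Large and small subunit genes had like values. The 44 core genes of the large subunit had a median log2 fold change of 0.47, with 41 positive and 16 whose colistin values all lay above the saline values. Among the 31 core genes of the small subunit the median was 0.53, with 30 positive and 13 without overlap. The 9 paralogues and like genes tested had a median of 0.53, with 7 positive and 1 without overlap (Rpl37l1, named here after its values were seen).

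In the large subunit Rpl17, which encodes a protein that lines the peptide exit tunnel, had the highest fold change of all members. Its level was 5.23, 4.62, 5.09 and 5.36 on colistin arrays 1 to 4, against 3.93, 3.57, 3.35 and 4.18 on saline arrays 1 to 4. A level here is log2 signal over the 75th percentile of the array. Every colistin value lay above every saline value. The log2 fold change was 1.32 ± 0.32 (SE, n = 4 per group; adjusted p = 0.0843, limma). A second, dimmer probe of Rpl17 gave 0.46.

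Rpl28, a large subunit protein with no bacterial counterpart, stood at 5.92, 6.003, 5.95 and 5.98 on the colistin arrays, against 4.52, 5.04, 4.09 and 5.74 on the saline arrays. The colistin values lay within a narrow band, and the saline values were widely spread below it. Its log2 fold change was 1.12 ± 0.39 (adjusted p = 0.161, limma). Rpl27a, also of the large subunit, was at 4.39, 4.28, 4.54 and 4.36 in colistin kidneys, against 3.19, 3.52, 3.66 and 3.14 in saline kidneys. Its groups stood well apart, with a log2 fold change of 1.01 ± 0.27 and an adjusted p of 0.0999 (limma).

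The acidic stalk proteins recruit elongation factors to the ribosome, and Rplp0 forms the base of the stalk. Rplp0 levels were 5.97, 6.24, 5.80 and 5.66 after colistin, against 4.67, 5.12, 5.25 and 5.77 after saline. Saline array 4 overlapped the colistin values, and the other saline arrays lay below them. The log2 fold change of Rplp0 was 0.72 ± 0.33 (adjusted p = 0.236, limma). Its partners in the stalk gave 0.44 ± 0.37 for Rplp2 and 0.25 ± 0.33 for Rplp1, and in both saline array 4 was the highest of all 8 arrays.

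Several further large subunit genes are known for a particular site or role. Rpl3, whose protein reaches towards the peptidyl transferase centre, gave 0.78 ± 0.29, and its colistin values of 4.24 to 4.48 lay above its saline values of 3.18 to 3.95. Rpl39, whose small protein lines the exit tunnel, gave 0.84 ± 0.28, at 5.50 to 5.76 after colistin and 4.43 to 5.22 after saline. These genes did not overlap between groups, and neither passed (adjusted p = 0.174 and 0.156, limma).

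Rpl8 gave 0.68 ± 0.31, Rpl22 0.60 ± 0.27 and Rpl36a 0.54 ± 0.29. Rpl10, which joins the large subunit late in its assembly, gave 0.33 ± 0.34, and Rpl7 gave 0.14 ± 0.29. The second probe of Rpl7 was negative, at -0.43, so the direction of that gene depended on the probe. Rpl36a had 4 probes, from -0.88 to 0.63, and their mean gave 0.043.

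Rpl5 and Rpl11 carry the small ribosomal RNA of the large subunit and, when ribosome assembly is disturbed, bind Mdm2, the ubiquitin ligase that restrains p53. The fold change of Rpl5 was positive and that of Rpl11 near 0, and the difference between them was not tested. Rpl5 was at 3.10, 2.89, 2.91 and 2.44 after colistin, against 1.33, 2.35, 2.73 and 2.69 after saline, with a log2 fold change of 0.56 ± 0.39 (adjusted p = 0.406, limma). Rpl11 was at 6.31, 6.62, 6.29 and 5.97 after colistin, against 6.31, 6.34, 5.95 and 7.06 after saline. Its groups overlapped throughout, with -0.12 ± 0.33 (adjusted p = 0.853, limma), and the value turned to 0.10 without saline array 4, 0.090 with normexp and 0.078 with quantile normalization.

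Rpl13a is a common reference gene in expression studies and encodes a large subunit protein also known for silencing inflammatory messages. Its levels were 6.33, 6.48, 6.18 and 6.14 after colistin, against 6.05, 6.12, 6.05 and 6.41 after saline, which overlap. The log2 fold change was 0.12 ± 0.26 (95% interval -0.48 to 0.73; adjusted p = 0.802, limma). Rpl18 and Rpl36 both gave -0.01, with SE of 0.32 and 0.28, and both were positive with normexp (0.15 and 0.13) and with quantile normalization (0.019 and 0.049).

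**Figure D3:**
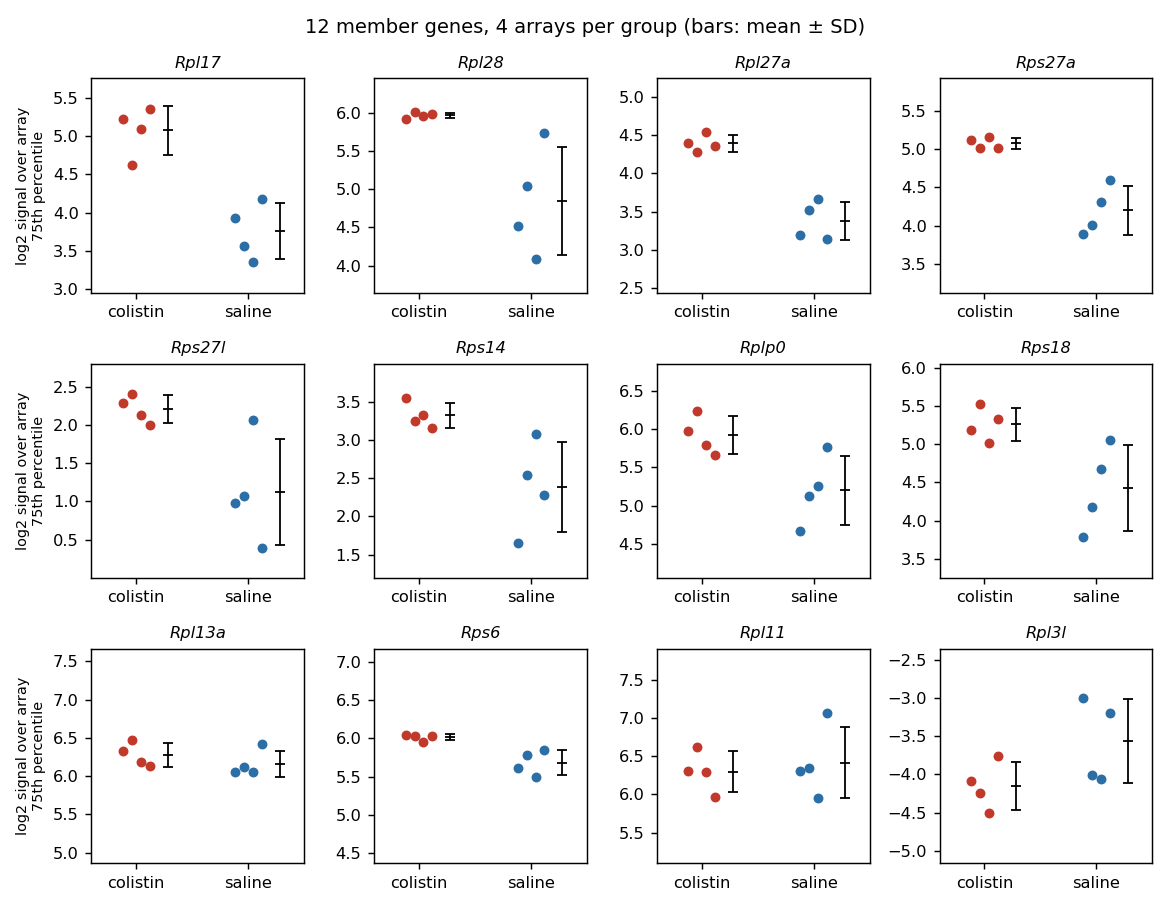
Level (log2 signal over the array's 75th percentile) of 12 members on the 4 colistin arrays (left, red) and the 4 saline arrays (right, blue), with the mean and SD beside the points; each panel spans the same number of log2 units. Colistin points of Rpl17, Rpl27a, Rps27a and Rps6 lie wholly above the saline points, those of Rpl13a and Rpl11 overlap them, and those of Rpl3l lie mostly below.

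In the small subunit Rps25 had the highest core value, at 0.98 ± 0.41, but its groups overlapped. It was at 4.04, 3.52, 4.19 and 4.06 after colistin, against 2.34, 3.01, 3.97 and 2.55 after saline. Rps14, a protein of the small subunit platform, was at 3.54, 3.25, 3.33 and 3.15 after colistin, against 1.65, 2.54, 3.07 and 2.28 after saline. All colistin values of Rps14 lay above the saline values, and its log2 fold change was 0.93 ± 0.36 (adjusted p = 0.185, limma).

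Rps27a encodes ubiquitin fused to a small subunit protein. It stood at 5.12, 5.01, 5.16 and 5.02 in colistin kidneys, against 3.89, 4.01, 4.31 and 4.59 in saline kidneys. The groups did not overlap, and the log2 fold change was 0.88 ± 0.28 (adjusted p = 0.143, limma). Fau encodes the other ubiquitin-like fusion of the family, and gave 0.08 ± 0.28 with overlapping groups.

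Rps18, another common reference gene, was at 5.18, 5.52, 5.02 and 5.33 after colistin, against 3.78, 4.18, 4.67 and 5.06 after saline. Only saline array 4 reached into the colistin range, and the log2 fold change was 0.84 ± 0.35 (adjusted p = 0.21, limma). Rps3, which lies at the messenger entry channel and also acts in DNA repair, gave 0.81 ± 0.42, and saline array 4 was its highest array. Rps19, a gene mutated in Diamond-Blackfan anaemia, gave 0.66 ± 0.32, and Rpsa, also known as the laminin receptor, 0.45 ± 0.28. The second probe of Rpsa gave -0.34, and the mean of both 0.053.

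Rps6 is the substrate of the S6 kinases downstream of mTORC1. Its levels were 6.05, 6.03, 5.95 and 6.03 after colistin, against 5.61, 5.78, 5.50 and 5.85 after saline. The groups did not overlap, although the difference was small, at 0.33 ± 0.25 (adjusted p = 0.447, limma). Rps15, a protein of the small subunit head, gave 0.36 ± 0.27, also without overlap. A second, dimmer probe gave 0.55 for Rps6 and 0.49 for Rps15, and with it the groups overlapped in both genes. Rps4x, an X-linked member, gave -0.04 ± 0.34, or 0.024 with quantile normalization, with saline values of 0.60 to 1.82 on both sides of the colistin values of 1.08 to 1.24.

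Paralogues were compared with their core counterparts. Rps27l encodes a close relative of Rps27 that is induced by p53 in human cells. Rps27l was at 2.29, 2.41, 2.13 and 2.00 after colistin, against 0.98, 1.06, 2.06 and 0.39 after saline. Saline array 3 lay inside the colistin range, and the other saline arrays were lower, with a log2 fold change of 1.08 ± 0.39 (adjusted p = 0.171, limma). Rps27 itself gave 0.67 ± 0.27 without overlap. A second probe of Rps27 of like brightness gave 0.30, and its groups overlapped, at 5.12 to 5.56 after colistin and 4.93 to 5.18 after saline.

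Rpl22l1 gave 0.53 ± 0.33, next to 0.60 for Rpl22. A second, dimmer probe gave 0.03 for Rpl22l1 and 0.75 for Rpl22, so how close they stood depended on the probe. Rpl3l, the paralogue of Rpl3 made mainly in heart and skeletal muscle, had a negative fold change. It was dim, at -4.09, -4.25, -4.51 and -3.77 after colistin, against -3.00, -4.01, -4.06 and -3.19 after saline. Its log2 fold change was -0.59 ± 0.36 (adjusted p = 0.354, limma), and the groups overlapped. Rpl27l2 gave -0.62 ± 0.39 and was well above background on 3 of 4 arrays of each group.

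Some members were not measured well. Rpl15 (chosen after its values were seen) was dim, with an SE of 1.26, and only 2 of 4 saline arrays showed it well above background. Rpl39l1 was above background on 3 of 4 colistin arrays and on 0 of 4 saline arrays (adjusted p = 0.62, limma). With saline values raised to the dimmest probes above background it was 1.17-fold higher after colistin, which is no strict lower limit. Its direction was not stable: the groups overlapped, the 95% interval of the log2 fold change began at -0.83, slide 1 gave -0.90 and normexp -0.48. Rpl15 likewise gave 0.48, but -0.36 with normexp. Of 49 members with over 1 kept probe, 5 had probes that differed in sign (Rpl36, Rpl36a, Rpl7, Rps16 and Rpsa). Over all 147 member probes kept, 136 were positive and 11 negative, with a median of 0.49. The reference table lists 1141 symbols that match the rule, 839 of them typed as pseudogenes, so near-identical copies leave the target of many probes uncertain.

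The member median lay above 0 on every colistin array. Relative to each gene's saline mean, the median over the 84 members was 0.51, 0.62, 0.49 and 0.35 on colistin arrays 1 to 4, against -0.26, -0.05, -0.07 and 0.37 on saline arrays 1 to 4. Saline array 4 lay above colistin array 4, and the other saline arrays lay below every colistin array. Array means were 0.49 ± 0.11 for colistin and -0.00 ± 0.26 for saline (SD, n = 4 each). On colistin arrays between 77.4% and 96.4% of members lay above their saline mean, against 23.8% to 85.7% on saline arrays.

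Saline array 4 was also high in bright genes that are no members. In the 1165 other genes of the brightest 10% the array medians were -0.10, 0.10, -0.07 and -0.23 on colistin arrays 1 to 4, against -0.22, -0.10, -0.05 and 0.36 on saline arrays 1 to 4. Among those genes the groups were mixed. Without saline array 4 the member median was 0.61.

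**Figure D4:**
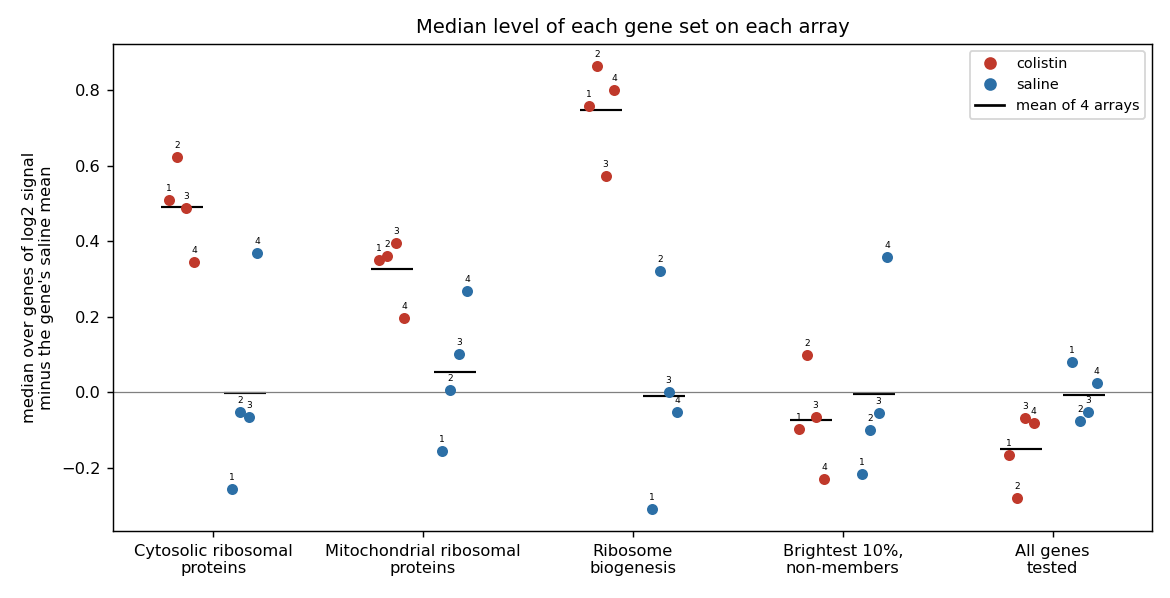
Median over the genes of each set of log2 signal minus the gene's saline mean, 1 point per array (red, colistin; blue, saline; digits give the array number), with the mean of 4 arrays as a bar. Colistin arrays of the cytosolic ribosomal proteins lie at 0.35 to 0.62 and saline array 4 at 0.37, while for all genes the colistin arrays lie below 0.

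Slide 1 held 1 colistin and 2 saline arrays, slide 2 held 1 of each, and slide 3 held 2 colistin and 1 saline. The 3 slides each held both groups, so the difference could be read within slides, on slide 2 from 1 array per group. Its member median was 0.59 on slide 1, 0.54 on slide 2 and 0.51 on slide 3, with 77, 78 and 80 of 84 members positive. All genes gave -0.37, -0.07 and -0.07 on the same slides. With slide as a block the member median was 0.54, and 0 members passed.

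The saline arrays were dimmer, with 75th percentiles of 271 to 317 on colistin arrays and 156 to 197 on saline arrays. Between 79.1% and 83.9% of spots were well above background on colistin arrays, against 69.3% to 75.8% on saline arrays, and no spot was saturated. Kidney markers were present, with 10 of 11 genes above background on all colistin arrays and 11 of 11 on all saline arrays. Their median log2 fold change was -1.42, with 8 of 11 negative and none passing. Without adjustment 6 of the 11 had p under 0.05 as lower and 1 as higher (limma), against 12.2% and 10.5% of all genes. For 7 of the 11 the colistin values lay wholly below the saline values, and for 0 wholly above, against 11.7% and 6.89% of all genes. Of 13 markers of leukocytes, endothelium, mesenchyme and proliferation, 10 were tested, with a median of -0.72, 9 negative and 2 passing as lower (Kdr and Pecam1). Ptprc, the common leukocyte gene, gave -0.42 ± 1.08 (adjusted p = 0.835, limma). The part of brightness and of the mix of cells in the ribosomal protein values was not tested.

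Members with a TOP tract at the annotated start, 41 genes such as Rpl17 and Rpl28 above, had a median log2 fold change of 0.54, with 40 positive. The 27 tested members with a promoter entry but no tract at the start had a median of 0.43, with 22 positive. In core genes alone the median was 0.54 for 39 with a tract (38 positive) and 0.43 for 21 without (18 positive). The difference between members with and without a tract was not tested. Among tested genes outside the family the medians were -0.07 for 1628 genes with a tract and -0.14 for 8443 without one.

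Other genes of the TOP class and of translation were read from the same fit. The lists share genes, so their medians and counts are not separate observations. Eef1a1, Eef1b2, Eef1d, Eef1g and Eef2 stood among both the TOP genes and the elongation factors. Eif3e, Eif3f and Eif3h were both TOP genes and initiation factors, and Npm1 was counted under TOP genes and ribosome biogenesis. Of 20 tested TOP genes that encode no ribosomal protein, 18 were positive, with a median of 0.58, and 2 rose (Npm1 and Nap1l1). Nap1l1, which encodes a histone chaperone, was at -0.66, -0.72, -0.98 and -0.57 after colistin, against -3.90, -2.93, -2.62 and -3.50 after saline. It rose by 2.50 ± 0.35 (adjusted p = 0.0154, limma), and lost the call without colistin array 1, 2 or 4 and with slide as a block (adjusted p = 0.0783).

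Genes of ribosome biogenesis had a median of 0.73 over 56 tested, with 42 positive and 2 that rose. Npm1 encodes nucleophosmin, a nucleolar chaperone of ribosome assembly. It was at 4.14, 4.40, 4.04 and 4.37 after colistin, against 1.78, 2.64, 2.62 and 1.86 after saline, a rise of 2.01 ± 0.32 (adjusted p = 0.0239, limma). The groups stood far apart, but the call was lost without any 1 of the colistin arrays, without saline array 1 and with slide as a block (adjusted p = 0.104).

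Nvl, an ATPase of large subunit assembly, cleared background on each colistin array and on 0 of 4 saline arrays. Its measured means were -2.68 after colistin and -7.25 after saline (adjusted p = 0.0044, limma). With saline values raised to the dimmest probes above background it was 11.8-fold higher after colistin, which is no strict lower limit. With normexp its log2 fold change was 0.35 (adjusted p = 0.271). Rrn3, a factor for transcription of ribosomal RNA, was lowest of this list at -1.99 ± 1.54 (adjusted p = 0.452, limma).

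Initiation factors had a median of 0.46 over 37 tested, with 28 positive and none passing. Eif2b3, of the exchange factor for eIF2, was highest at 3.96 ± 1.05 (adjusted p = 0.0995, limma), and it was above background on 2 of 4 saline arrays. Eif3e was lowest at -1.04 ± 0.40. Genes listed as elongation factors had a median of 0.33 over 11, with 7 positive and none passing. In this list values ran from 1.74 ± 1.06 for Eef1e1 to -1.11 ± 0.44 for Eefsec, the factor for selenocysteine.

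Genes that control TOP messages and the S6 kinases had a median of 0.44 over 17 tested, with 11 positive and none passing. Rps6ka1, a ribosomal S6 kinase of the ERK pathway, was highest at 2.60 ± 0.55 (adjusted p = 0.0615, limma), and Sesn2, a stress-induced inhibitor of mTORC1, lowest at -1.46 ± 0.83. Ribosome-associated genes had a median of 0.50 over 12 tested. Pelo, a factor that rescues stalled ribosomes, was at 1.42, 2.40, 1.42 and 1.39 after colistin, against -0.24, -1.76, -0.23 and -0.61 after saline. It rose by 2.37 ± 0.45 (adjusted p = 0.0421, limma), a call lost in each fit that left out 1 array (adjusted p from 0.0575 to 0.1) and with slide as a block (adjusted p = 0.0812). Ltn1, which marks stalled nascent chains for decay, was lowest at -0.80 ± 1.25.

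Mitochondrial ribosomal proteins build the separate ribosome of the mitochondrion. Of 67 genes 39 were positive, none passed and the median log2 fold change was 0.19, between that of the cytosolic set (0.50) and that of all genes (-0.14). Their array medians were 0.35, 0.36, 0.40 and 0.20 on colistin arrays 1 to 4, against -0.16, 0.00, 0.10 and 0.27 on saline arrays 1 to 4. Saline array 4 lay above colistin array 4 here too. The difference between the mitochondrial and the cytosolic set was not tested.

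**Figure D5:**
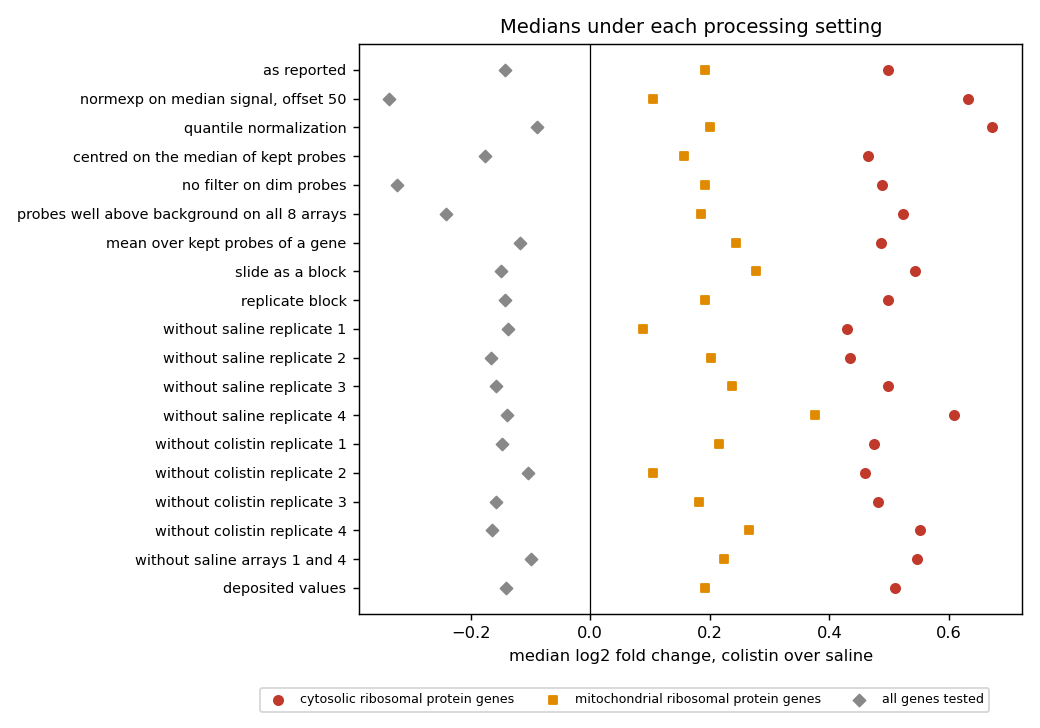
Median log2 fold change, colistin over saline, of the cytosolic ribosomal protein genes (circles), the mitochondrial ribosomal protein genes (squares) and all genes tested (diamonds) under each processing setting. The cytosolic median stays between 0.43 and 0.67 in the settings drawn, to the right of the other sets in each of them.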

How the data were processed

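Kidney RNA was copied into amplified cDNA, dyed with Cy3 and put on 1 array per sample, per the labels' protocols. The deposited spot intensity values were made by Agilent Feature Extraction 10.5 (from the submitters' processing notes) and were background-corrected within arrays and not scaled between them, per the file headers. The authors' deposited series table held log2 values, shifted by about each array's 75th percentile and centred on each probe's median, as set against the scanner values. Its column medians were -0.113, -0.230, -0.0893 and -0.0327 for colistin arrays 1 to 4, and 0.233, 0.0232, 0.0865 and 0.196 for saline arrays 1 to 4.

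Between 257 and 461 outlying spots per array were left out. Values were log2 of the processed signal after division by the 75th percentile of the array. Probes were kept (23718) if 3 or more of 4 arrays in a group showed them well above background, named through RefSeq accessions (GRCr8), and each gene took its brightest probe. Groups were compared with limma 3.58.1 in R 4.3.3, two-sided, with Benjamini-Hochberg adjustment over 12411 genes. No column held the mean spot signal, so normexp (offset 50) used the median spot signal. Alternatives were another normalization, filter or probe rule, slide or replicate block, and left-out arrays. The test was also run on simulated data. For the folds of Nvl and Rpl39l1, saline levels were raised to at least that of the array's dimmest probe above background.

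Members, lists and the rule for named genes (the 6 highest and 6 lowest members, a list of well-known members, and passing or extreme genes of each other list) were chosen with earlier results of these data known. Rpl26, Rpl10l, Rpl39l and Rpl7l1 were not analysed here. Same-numbered samples of the 2 groups did not deviate together (correlations -0.0205 to 0.0134), so numbers were not taken as pairs. The number of arrays limits the precision.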

Additional observations from a re-analysis of the deposited data

Results flagged for a closer look

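Among 70 groups of 4 arrays (34 members and the member median, in each group), 3 held an array far from the others by Dixon's criterion, and chance flags about 1 in 20 groups. Rps6 stood at 5.95 on colistin array 3, against 6.03 to 6.05 on the other colistin arrays. Rpl10 stood at 7.54 on saline array 4, against 6.39 to 6.55 on the other saline arrays. Rps15 stood at 4.83 on saline array 1, against 5.13 to 5.17 on the other saline arrays.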

How the results depend on the processing

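The median log2 fold change of the members moved by less than the spread between arrays in each alternative tried, from 0.46 with arrays centred on the median to 0.67 with quantile normalization, and from 0.43 to 0.61 with 1 array left out. Over all genes 248 passed, 3379 with normexp, 40 with slide as a block, 143 without saline arrays 1 and 4 and 78 to 255 with 1 array left out; the cause was not tested. With the replicate number as a block 5 genes passed and 0 members. No member passed in any alternative other than normexp, where 37 did, and the share of higher genes among those called was 73.0%, against 20.4% with normexp and 59.6% when a probe had to clear background on each of 8 arrays. Some members turned sign, among them the dim Rpl15 (-0.36) and Rpl39l1 (-0.48) with normexp. Rpl18, Rpl36, Rps4x and Rpl11 were positive with normexp (0.15, 0.13, 0.019 and 0.090), quantile normalization (0.019, 0.049, 0.024 and 0.078), slide as a block (0.087, 0.080, 0.095 and 0.032) and without saline arrays 1 and 4 (0.035, 0.19, 0.38 and 0.15). With 1 array left out they ranged from -0.16 to 0.15, -0.12 to 0.086, -0.25 to 0.16 and -0.27 to 0.10, and Fau from -0.047 to 0.18. With the mean over probes Rpl36 gave 0.19 and Rpl7 -0.14. Ltn1 ranged from -1.60 to 0.41 with 1 array left out. The cause of these turns was not tested. No value of depth applies to arrays, and dim members such as Rpl15, Rpl3l, Rpl27l2 and Rpl39l1 are limited by signal near background.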
